A study of Mus musculus with 12 samples.

Results

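Cluster 5 held the nuclei that the study classed as migrating interneurons in the embryonic mouse cortex. All nuclei that the authors placed in Cluster 5 were taken, which gave 3809 of the 50550 nuclei in the tables (7.54%). Pregnant C57BL/6J mice received saline or 2.5 g/kg EtOH by intraperitoneal injection daily for 6 days, from E8 to E13, and nuclei of the cortex were profiled by droplet-based snRNAseq at E14. The 5 saline embryos, named by dam and number, were S1-1 and S1-2 (batch 1) and S2-1, S2-2 and S2-4 (batch 2). The 6 EtOH embryos were E1-1 and E1-2 (batch 1) and E2-1, E2-2, E2-3 and E2-4 (batch 2). Saline embryo S2-3 was not analysed here. The treatments were given to 2 dams each, so the tests below take littermates as independent and measure the spread between embryos rather than between litters. Levels are given as CPM, the unique molecular identifiers (UMIs) of a gene summed over the Cluster 5 nuclei of an embryo and scaled to a common total. Errors are SDs between embryos, except that those of log2 changes are SEs.

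Cortical interneurons are born in the ganglionic eminences below the cortex and migrate tangentially into it. Those of the medial eminence depend on the transcription factor Lhx6 and later become the somatostatin and parvalbumin classes, while those of the caudal eminence carry other factors such as Sp8, Prox1 and Nr2f2. On their way they read neuregulin through the receptor Erbb4 and the chemokine Cxcl12 through Cxcr4 and Ackr3.

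Cluster 5 held between 191 and 687 nuclei per embryo and between 975232 and 7082746 UMIs. The nuclei numbered 455 ± 187 in saline and 256 ± 71.3 in EtOH embryos (SD, two-sided exact permutation p = 0.0390, and 0.0524 within batch). Nuclei of all clusters together were also fewer, at 4437 (S2-2) to 7639 (S1-1) in saline and 2346 (E2-3) to 4928 (E2-2) in EtOH embryos. The share of nuclei in Cluster 5 is given below. A single nucleus had a median of 6652 UMIs and 2488 genes, with between 1078 and 86352 UMIs. No doublet caller was run, so nuclei with many UMIs were kept. Within Cluster 5, 3 barcodes were shared between different embryos. The chi-square per gene between the counts of 2 embryos lay between 2.28 and 7.99 for littermates. Over all pairs of embryos it lay between 1.91 (S2-4 and E2-4) and 8.87 (S2-1 and E1-2), where sampling noise alone gives about 1.

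The levels in Cluster 5 were set beside those of the other 24 clusters as a description, without a test, since the clusters were made from these genes. All 3 markers were abundant, but only Nxph1 set Cluster 5 apart from each other cluster. Nxph1, a secreted neurexophilin that binds neurexins (chromosome 6, 8948431 to 9249032, GRCm38), had a mean of 8070 ± 704 CPM (n = 11) and was 4.32-fold above the next cluster, Cluster 19. It lay between 7092 and 9224 CPM over the 11 embryos, above Cluster 19 in 11 of 11 embryos. Erbb4 (chromosome 1, 68032186 to 69108059) had a mean of 23026 ± 2037 CPM, and Cluster 23 had 22228 ± 3093 CPM. Cluster 5 was above Cluster 23 in 4 of the 10 embryos that could be compared, so Erbb4 did not tell these clusters apart. Gad2, one of the enzymes that make GABA (chromosome 2, 22622205 to 22693874), had 1102 ± 74.5 CPM and ranked 4 of the 25 clusters, with the highest level, 1248 ± 165 CPM, in Cluster 23. Nxph1 was found in 95.2% of Cluster 5 nuclei and Gad2 in 97.3%, against 35.4% and 18.2% of the nuclei of projection neuron Clusters 1, 4, 8 and 9, where free RNA can also give UMIs. The median depth was 6652 UMIs in Cluster 5 and 7334.5 in those projection neuron clusters.

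**Figure D1:**
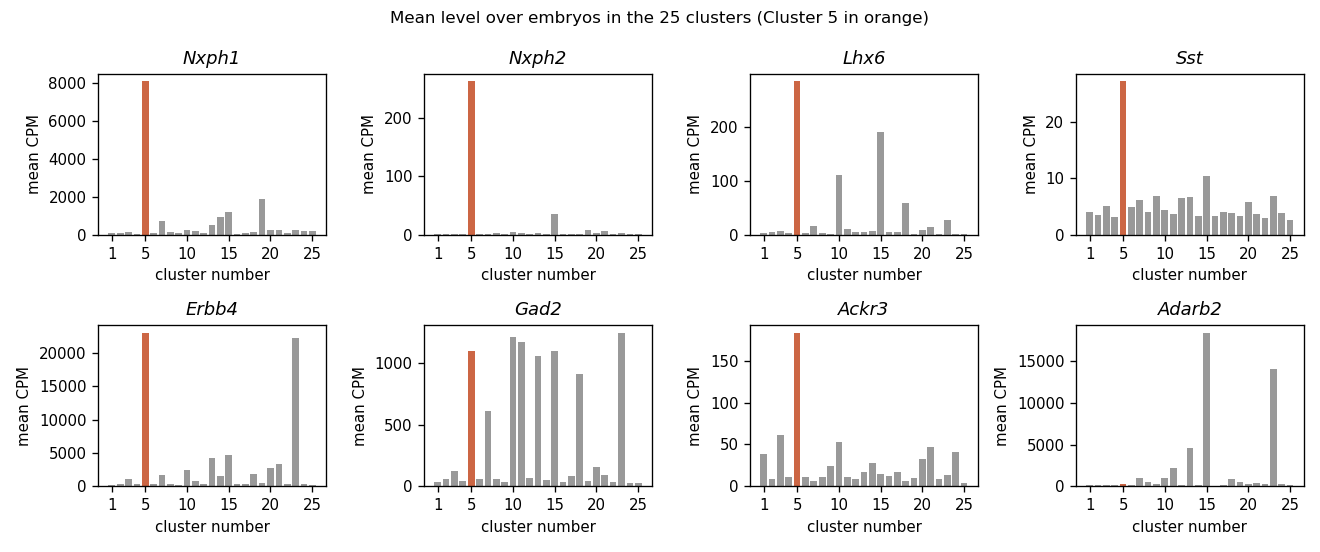
Mean CPM over embryos (y axes) in each of the 25 clusters (x axes) for 8 genes, with Cluster 5 in orange. Nxph1, Nxph2, Lhx6, Sst and Ackr3 were highest in Cluster 5, Erbb4 was shared with Cluster 23, Gad2 with the other interneuron clusters, and Adarb2 stood at 289.5 CPM in Cluster 5 against 14095 CPM in Cluster 23.

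Of 6214 genes with at least 20 CPM in Cluster 5, 104 had their highest level there. The largest ratio to the next cluster belonged to Nxph2, a second neurexophilin, at 262.5 ± 60.1 CPM against 35.2 ± 21.5 CPM in Cluster 15, a ratio of 7.46. It was followed by Ism1, a secreted protein (30.3 ± 9.89 CPM, ratio 6.70), and Dgkg, a diacylglycerol kinase (199 ± 63.9 CPM, ratio 5.12). Gria4, an AMPA receptor subunit, had 4534 ± 383 CPM and a ratio of 3.45. Ackr3, the scavenging chemokine receptor, had 184 ± 32.1 CPM and a ratio of 2.98. Prkcq, Maf, Sst, Ptchd4, Dlgap2, Rps6ka5, Cacng3, Tox2, Mkx, Hivep3, Satb1, Cbfa2t3, Dpp10 and Tiparp completed the 20 largest ratios, which ran down to 1.67. Mkx varied most of these between embryos, from 2.64 to 65.9 CPM.

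The transcription factors of the medial eminence marked the cluster. Of 12 listed, 7 were highest in Cluster 5 and 9 were among its top 3 clusters. Lhx6 had 285 ± 21.5 CPM against 190 ± 57.8 CPM in Cluster 15, and was higher in Cluster 5 in 10 of 11 embryos. Sox6, which acts after Lhx6, had 3487 ± 356 CPM. Satb1 had 434 ± 47.2 CPM and Maf 279 ± 36.0 CPM. Cux2 (770.5 ± 111 CPM) and Rai2 (211 ± 25.8 CPM) were also among the 7. Nkx2-1 and Lhx8, which mark the eminence itself and its early offspring, were low, at 17.4 ± 8.25 and 19.2 ± 9.35 CPM, and both were highest in Cluster 15. Of 16 listed factors of the caudal and lateral eminence, 0 were highest in Cluster 5, and their summed level of 2050 CPM ranked 23 of the 25 clusters. Sp8 stood at 2.67 ± 1.57 CPM in Cluster 5 against 64.0 ± 24.4 CPM in Cluster 23. Prox1 stood at 36.7 ± 15.4 CPM and Nr2f2 at 86.0 ± 29.3 CPM. Adarb2 was found in 50.2% of Cluster 5 nuclei but also in 47.9% of the projection neuron nuclei, so its detection in Cluster 5 was near the background share, and it ranged from 18.3% to 83.1% between embryos.

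Of 12 transcription factors that GABAergic neurons share, 2 were highest in Cluster 5, among them Zeb2 at 2452 ± 185 CPM. Zeb2, which turns eminence progenitors towards the cortical fate, had 2451 ± 209 CPM in Cluster 1, so the order of these clusters rested on a difference far below the spread between embryos. Of 14 listed receptors and ligands of neuregulin, chemokine and growth factor signalling, 3 were highest in Cluster 5 (Erbb4, Ackr3 and the neurotrophin receptor Ntrk2). In 8 of the 14, Cluster 5 ranked at or below the middle of the 25 clusters, and Cxcr4 was low at 7.21 ± 2.87 CPM. Of 28 glutamate receptor and scaffold genes, 6 were highest in Cluster 5, which were Gria1, Gria4, Neto1, Dlgap1, Dlgap2 and Cacng3. For 10 of the 28 Cluster 5 was among the top 3 clusters, and for 9 it ranked at or below the middle. The summed level of the 28 ranked 1, a sum in which the genes of high level weigh most. Of the 30 guidance receptors and ligands 1 was highest, the ephrin receptor Epha5 at 6455 ± 518 CPM, and of 15 GABA receptor genes 0 were. Genes of S and G2/M phase summed to 329 CPM, against 2664 CPM in mitotic Cluster 17. This sum ranked 9 of the 25 clusters, whose median was 229 CPM.

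Of 17 interneuron subtype genes listed, 6 were highest in Cluster 5 (Sst, Npy, Calb1, Kcnc2, Kcnmb2 and Tox2) and 4 were under 1 CPM. Sst, the peptide somatostatin, had 27.1 ± 5.10 CPM and was higher than in the next cluster, Cluster 15, in 11 of 11 embryos, and the peptide Npy had 15.9 ± 4.02 CPM, also higher than the next cluster in 11 of 11. Pvalb had 7 UMIs and Cck 25 UMIs over all nuclei of the cluster. Sst was found in 13.4% of Cluster 5 nuclei, against 3.26% of projection neuron nuclei and 5.99% of Cluster 15 nuclei.

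Cluster 23, the other Erbb4-rich cluster, had 405 nuclei. Of 3685 genes with at least 50 CPM in either cluster, 85 were over 3-fold higher in Cluster 5 and 32 over 3-fold higher in Cluster 23. Higher in Cluster 5, in all 10 embryos compared, were Nxph2 (95.7-fold), Nxph1 (28.7-fold), the potassium channel subunit Dpp10, the adhesion gene Cntnap3, Cacng3, the glutamate receptor Grm5, Dlgap1, Neto1, Ackr3 and Fam135b. Lhx6 was 285 CPM against 27.6 CPM. Higher in Cluster 23 were the RNA editing gene Adarb2 (48.7-fold), Sp8 (23.9-fold), the sorting receptor Sorcs3 (13.1-fold), Nr3c2, Wnt5a, Synpr, Prox1os, Angpt1 and Pdzrn3.

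The share of an embryo's nuclei in Cluster 5 did not differ between treatments beyond the spread between embryos. It was 8.99% in S1-1, 7.96% in S1-2, 6.68% in S2-1, 4.55% in S2-2 and 8.08% in S2-4. In the EtOH embryos the lowest share was 6.59%, the median 7.65% and the highest 9.17%. The means were 7.25% ± 1.72 (saline, n = 5) and 7.69% ± 0.999 (EtOH, n = 6), and the groups overlapped almost wholly (two-sided exact permutation test, p = 0.597, and p = 0.638 with labels exchanged within batch). As a share of the nuclei of the 7 interneuron clusters, Cluster 5 made up 27.1% ± 6.04 in saline and 32.3% ± 8.08 in EtOH embryos (exact permutation p = 0.273).

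The depth of the nuclei did differ. The median UMIs per Cluster 5 nucleus were 8558 in S1-1, 7738 in S1-2, 8244.5 in S2-1, 7997.5 in S2-2 and 5892 in S2-4. In the EtOH embryos they lay between 4140 (E1-1) and 5959 (E2-4), with a median of 5792.75. Saline embryo S2-4 was thus the only saline embryo at the depth of the EtOH embryos. The means were 7686 ± 1048 and 5522 ± 693 UMIs (two-sided exact permutation p = 0.0130, and 0.0143 within batch), and the number of genes per nucleus fell with it, from 2685 ± 218 to 2212 ± 198 (exact permutation p = 0.00866). Nuclei outside Cluster 5 differed as well, with a mean of 9773 ± 1341 UMIs per nucleus in saline and 7234 ± 1213 in EtOH embryos (SD, exact permutation p = 0.0152, and 0.0286 within batch). Of the saline embryos S2-4 was the lowest there too, at 7502 UMIs, within the EtOH range of 4851 to 8313. Less RNA per nucleus and less of it captured or sequenced cannot be told apart in these counts. Sst was found in 15.1% ± 4.17 of Cluster 5 nuclei in saline and 12.6% ± 1.27 in EtOH embryos (exact permutation p = 0.229). After every nucleus was thinned to 2000 UMIs, with 33 shallower nuclei left out, these shares were 4.72% ± 1.45 and 4.81% ± 1.84 (p = 0.948, exact permutation).

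**Figure D2:**
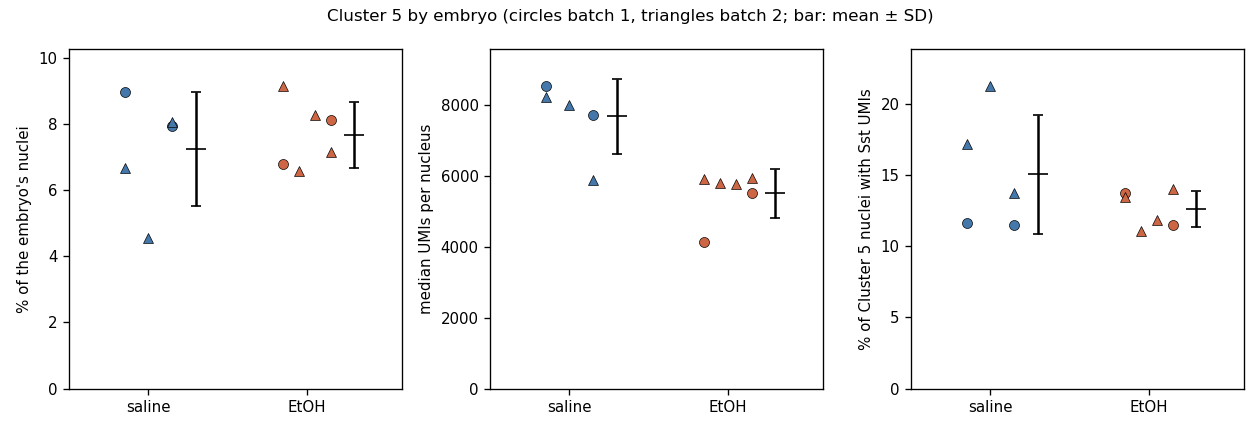
Cluster 5 in each embryo, with the share of the embryo's nuclei in % (left), the median UMIs per nucleus (centre) and the % of nuclei with Sst UMIs (right). Points are embryos (circles batch 1, triangles batch 2) and bars are the mean and SD. Shares overlapped between treatments, while 4 of the 5 saline embryos were deeper than all 6 EtOH embryos.

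To find genes that differed after PAE, counts were summed over the Cluster 5 nuclei of each embryo and tested with edgeR's quasi-likelihood test. Of 10705 genes tested, 215 (2.01%) were called with an adjusted p (Benjamini-Hochberg) below 0.05 and a fold below 0.8 or above its inverse, of which 128 were higher and 87 lower in EtOH embryos. The higher genes had a median of 21.3 CPM, and 45 of the 128 had Gm or Rik names, those of predicted genes and cDNA clones. The lower genes had a median of 107 CPM, and 4 of the 87 had such names. The median and this share over all genes tested are not given here, so nothing is read from either. With batch as a term edgeR called 160 genes. Over the genes tested, the CPM of the groups did not overlap for 1.42% with EtOH higher and 0.897% with EtOH lower, and of the called genes for 50 and 41.

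This count rested on single embryos and moved with depth. Without S2-4 it was 1426 and without S1-2 it was 2, and with each other embryo left out it lay between 4 and 114. On the log2(CPM + 1) scale, S2-4 was nearer to the EtOH mean than to that of the other saline embryos for 145 of the 215 genes. For each of the other saline embryos, whose comparison mean included S2-4, this held for 0 to 13 genes. The genes were picked in these same embryos, so these counts are no separate support. With the log2 median UMIs of each embryo as a covariate, chosen after the data were seen, edgeR called 0 genes and 353 had an unadjusted p under 0.05, against 2445 without it. All 215 genes kept their sign with the covariate, but they were picked for their difference in these same embryos, so the signs are no separate support. Their median absolute log2 change was 0.69 without and 0.42 with the covariate. With nuclei thinned to 2000 UMIs, 85 genes were called, of which 38 were among the 215. The 164 of the 215 that could still be tested all kept their sign, in UMIs drawn from the same nuclei. Treatment and depth cannot be told apart further with these embryos, and each fold change below is given with that limit.

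The 3 markers did not differ between treatments by this test. Nxph1 was 7612, 7466, 7805, 8591 and 7576 CPM in S1-1, S1-2, S2-1, S2-2 and S2-4, and lay between 7092 and 9224 CPM in EtOH embryos with a median of 8203. The log2 fold changes were 0.037 ± 0.086 (SE) for Nxph1, -0.16 ± 0.097 for Erbb4 and -0.035 ± 0.070 for Gad2, with edgeR adjusted p-values of 0.840, 0.344 and 0.814. All 3 overlapped between the groups.

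The smallest p-values belonged to Grin1, which was higher, and Slc17a6, which was lower. Grin1, the subunit that every NMDA receptor needs (chromosome 2, 25291181 to 25319187), was 30.1, 36.1, 30.0, 31.2 and 39.3 CPM in S1-1, S1-2, S2-1, S2-2 and S2-4, and in the EtOH embryos it had 52.0 CPM as the lowest, 57.4 as the median and 65.9 as the highest level. The groups did not overlap, with S2-4 the highest of the saline embryos, and the fold change was 1.67 (log2 0.74 ± 0.10, edgeR adjusted p = 0.00777). The call for Grin1 was kept with each embryo left out, with the replicate block, with counts summed per dam and with thinned nuclei, and was lost with the depth covariate (log2 0.65, adjusted p = 1.00 in edgeR). A gene on the other strand, Grin1os, overlaps Grin1.

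Cacng3, an auxiliary subunit of AMPA receptors and itself highest in Cluster 5, was 67.9, 52.3, 42.1, 61.8 and 72.9 CPM in the same order of saline embryos, and had 92.3, 108.6 and 151.3 CPM as the lowest, median and highest EtOH level. These groups did not overlap either, and the fold change was 1.81 (log2 0.86 ± 0.15, edgeR adjusted p = 0.0281). Of the 28 glutamate receptor and scaffold genes tested, these 2 were higher and 0 lower, where 2.01% of all genes tested were called in either direction, with a median log2 change of 0.087 against 0.0076 over all genes tested.

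On the side of GABA, Slc32a1, which loads GABA into synaptic vesicles, was 21.7, 17.5, 23.1, 23.2 and 26.6 CPM in S1-1, S1-2, S2-1, S2-2 and S2-4 and between 29.7 and 38.0 CPM in EtOH embryos, without overlap (fold 1.45, edgeR adjusted p = 0.0358). It was the 1 gene called of 8 for GABA synthesis and transport, and with 2.01% of all genes called, nothing is read from a single call in a list of this size. Gabbr2, a subunit of the metabotropic GABA receptor, was 44.6, 41.7, 28.9, 40.1 and 47.9 CPM in saline and 51.6 to 79.1 CPM in EtOH embryos (fold 1.46, edgeR adjusted p = 0.0407), and was the 1 called of 14 GABA receptor genes. The calls of Slc32a1 and Gabbr2 were lost when single embryos were left out, in 8 and 10 of 11 cases.

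**Figure D3:**
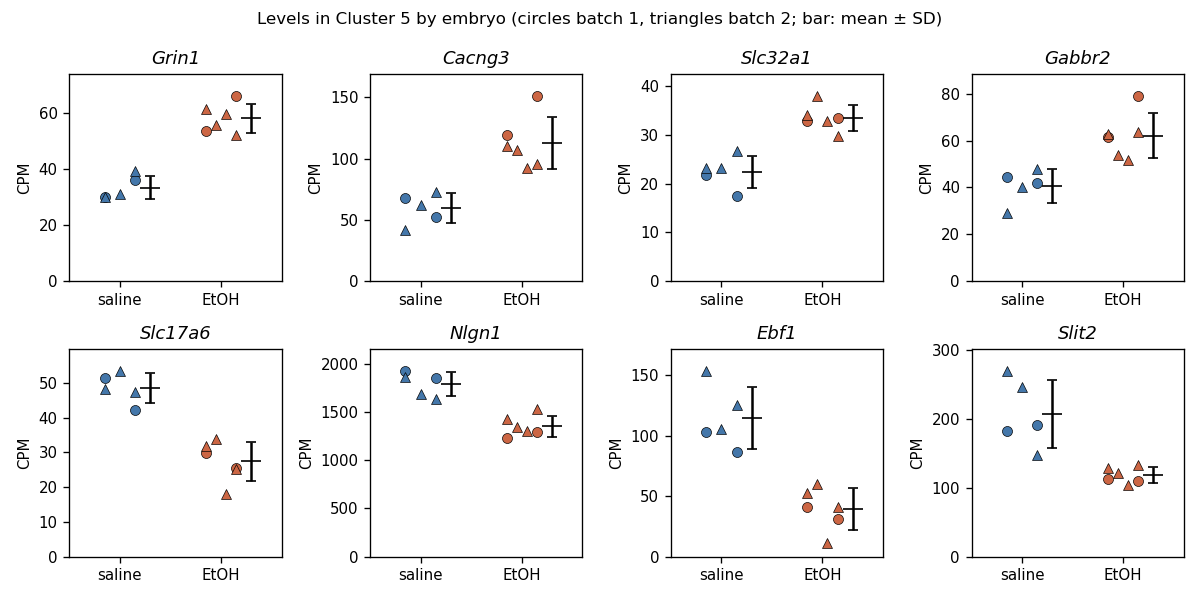
CPM in Cluster 5 (y axes) of 8 genes in each saline and EtOH embryo, with the mean and SD as bars, circles for batch 1 and triangles for batch 2. The upper 4 genes were higher and the lower 4 genes lower in EtOH embryos, without overlap between the groups in any of the 8.

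Among the genes that were lower, Slc17a6, a vesicular glutamate transporter (chromosome 7, 51622006 to 51671119), was 51.3, 42.3, 48.2, 53.3 and 47.2 CPM in S1-1, S1-2, S2-1, S2-2 and S2-4, and had 17.998, 27.7 and 33.9 CPM as the lowest, median and highest EtOH level. The groups did not overlap (fold 0.554, log2 -0.85 ± 0.13, edgeR adjusted p = 0.0105), and the call was kept with each embryo left out. Slc17a6 belongs to the projection neuron markers, of which it was the 1 called of 8 tested, where 2.01% of all genes were called. The summed level of that list overlapped, at 1753 to 2169 CPM in saline and 1437 to 2301 CPM in EtOH embryos. In all nuclei outside Cluster 5, Slc17a6 lay at 129 to 156 CPM in saline and 116 to 138 CPM in EtOH embryos.

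Ebf1, a transcription factor of striatal projection neurons that had 12463 CPM in striatal Cluster 11, was 103, 86.3, 153, 106 and 126 CPM in Cluster 5 of S1-1, S1-2, S2-1, S2-2 and S2-4. In EtOH embryos it was 10.96 CPM at the lowest, 41.0 at the median and 60.0 at the highest, without overlap (fold 0.347, log2 -1.53 ± 0.28, edgeR adjusted p = 0.0358). Foxp1, from the same list, was lower as well (fold 0.797, edgeR adjusted p = 0.0374), with 158 to 179 CPM in saline and 115 to 158 CPM in EtOH embryos, which overlapped in 1 embryo each. These were 2 of the 4 striatal markers tested, where 2.01% of all genes were called. The summed level of the 8 listed was 283 to 374 CPM in saline and 147 to 262 CPM in EtOH embryos, without overlap. This sum was mostly Ebf1 and Foxp1 themselves, and the other 6 markers summed to 21.1 to 51.8 CPM in saline and 19.5 to 50.9 CPM in EtOH embryos, which overlapped. Outside Cluster 5 the levels of Ebf1 overlapped, at 737 to 1059 CPM in saline and 697 to 1226 CPM in EtOH embryos, and so did the share of Cluster 11 nuclei, at 3.47% to 4.56% and 3.32% to 6.13%. The part of striatal RNA or striatal nuclei in this result was not tested further.

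Single adhesion and guidance genes were lower too. As 2.01% of all genes tested were called, nothing is read about these lists from so few calls. Nlgn1, the neuroligin that sits opposite neurexins at excitatory synapses, was 1921, 1848, 1861, 1680 and 1638 CPM in S1-1, S1-2, S2-1, S2-2 and S2-4, and 1224 to 1531 CPM in EtOH embryos (fold 0.728, edgeR adjusted p = 0.0187). The groups did not overlap, and Nlgn1 was the 1 gene called of 23 neurexin partners, whose median log2 change was 0.052. Slit2, a repellent ligand for Robo receptors, was 182, 191, 269, 246 and 147 CPM in saline and 104 to 132 CPM in EtOH embryos, again without overlap (fold 0.556, edgeR adjusted p = 0.0281). Epha3, an ephrin receptor, overlapped between the groups (fold 0.789, edgeR adjusted p = 0.0448), and it and Slit2 were the 2 called of 30 guidance genes, whose median log2 change was -0.18. Calls were lost without single embryos in 4 of 11 cases for Cacng3, 5 for Nlgn1, 6 for Slit2, 9 for Ebf1 and Foxp1 each and 10 for Epha3, whose adjusted p was 0.0511 in edgeR with batch as a term. A predicted gene or cDNA clone lies on the other strand at Slit2, Nlgn1, Ebf1 and Slc32a1, and on the same strand at Foxp1.

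Sp9, a factor of eminence progenitors and young interneurons, was 99.96, 115, 119, 101 and 94.2 CPM in the saline embryos in that order and 71.4 to 95.2 CPM in EtOH embryos, which overlapped (fold 0.760, edgeR adjusted p = 0.0390), and was the 1 called of 11 shared GABAergic factors. Its call was lost without single embryos in 9 of 11 cases, and Cir1 lies on the other strand. Sox2 was the 1 called of 8 radial glia markers (fold 0.745, edgeR adjusted p = 0.0484), and its call was lost in 10 of 11 cases without single embryos and with batch as a term (edgeR adjusted p = 0.0575). The summed level of the radial glia markers overlapped, at 175 to 249 CPM and 145 to 253 CPM. With 2.01% of all genes called, nothing is read from single calls in these lists.

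While 2.01% of all genes tested were called, 0 members were called in several other lists. These were the 12 medial eminence factors, 9 subtype genes, 8 neuregulin, chemokine and growth factor genes, 22 genes of the migration machinery, 29 of the Wnt pathway, 15 of S and G2/M phase and 18 of stress and cell death, as far as they could be tested, of which 6, 2, 2, 7, 6, 3 and 1 had an unadjusted p under 0.05 in edgeR. Over all genes that share was 22.8%, or 2445 genes. Of the medial eminence factors, Cux2 had an edgeR adjusted p of 0.0412 but a log2 change of 0.30, short of the fold threshold. Of the 3 intermediate progenitor, 2 Cajal-Retzius, 2 non-neuronal and 6 blood markers tested, 0 were called in edgeR as well, and 1, 0, 2 and 1 had an unadjusted p under 0.05. The microglial gene P2ry12 was 4.52, 6.96, 5.33, 3.17 and 6.23 CPM in S1-1, S1-2, S2-1, S2-2 and S2-4 and 8.04 to 12.3 CPM in EtOH embryos, without overlap (log2 0.77, edgeR adjusted p = 0.0689), and the microglial gene Cx3cr1 overlapped (log2 0.61, edgeR adjusted p = 0.173). The part of microglial RNA in the results was not tested. The summed levels of these lists all overlapped between the groups. Saline embryo S2-2 stood out in blood markers, with 182 CPM against 16.2 to 89.7 CPM in the other embryos. Of the caudal and lateral eminence factors, 2 of 13 were lower, which were again Ebf1 and Foxp1, with a median log2 change of -0.47, and the summed level of the 16 listed was 2107 to 2727 CPM in saline and 1391 to 2256 CPM in EtOH embryos.

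Outside the lists, the 15 genes with the smallest p-values that were higher included C2cd2 (fold 1.82), the chromatin remodelling subunit Smarcd3 (1.495), the mitochondrial peptidase subunit Immp1l (1.49), the prostaglandin synthase Hpgds (1.77), the meiotic gene Sycp2 (2.10), the gasdermin Gsdme (1.77), Selenoo (1.57) and the cilium gene Tmem216 (1.98). Gsdme, Selenoo, Smarcd3 and Tmem216 each overlap a gene on the other strand. The 15 that were lower included the scaffold Dlg1 (fold 0.770), the ectodysplasin Eda (0.668), the glypican Gpc6 (0.708), the chromatin remodeller Chd7 (0.720), Zfp516 (0.765), Ccser1 (0.713), Tnfaip8 (0.353), the Notch effector Rbpj (0.728), the semaphorin Sema5b (0.758), Bbx (0.746) and BC005537 (0.687). Their edgeR adjusted p-values lay between 0.0122 and 0.0281. Calls of the genes named in this paragraph were lost without single embryos in 1 (C2cd2) to 8 (Selenoo and BC005537) of 11 cases. Tnfaip8, with the lowest fold, was near the floor, at 6.78 to 14.5 CPM in saline and 0.783 to 6.12 CPM in EtOH embryos. Dlg1 was 297, 315, 334, 323 and 306 CPM in S1-1, S1-2, S2-1, S2-2 and S2-4 and 237 to 260 CPM in EtOH embryos, without overlap.

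To ask whether the EtOH differences were particular to Cluster 5, the other 6 interneuron clusters (7, 10, 13, 15, 18 and 23) were summed per embryo and the interaction of treatment and cell group was tested. Of 13061 genes tested with edgeR, 0 were called, while 521 (3.99%) had an unadjusted p under 0.05, and DESeq2 called 2. The smallest adjusted p in edgeR was 0.200. The log2 change of Grin1 was 0.34 in the other interneurons (edgeR adjusted p = 0.164), that of Nlgn1 -0.14 (0.446), that of Slc17a6 -0.12 (0.723) and that of Ebf1 0.026 (0.977). Others of the genes named above had an adjusted p under 0.05 in the other interneurons too, in the direction of Cluster 5. In edgeR these were C2cd2 at 0.67 (adjusted p = 0.0338), Gsdme at 0.51 (0.0367), Zfp516 at -0.48 (0.0241), BC005537 at -0.52 (0.0261), Rbpj at -0.44 (0.0339), Bbx at -0.31 (0.0387) and Dlg1 at -0.30 (0.0336). Both tests used the same embryos, and the difference from Cluster 5 did not pass the test for any gene of either kind.

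**Figure D4:**
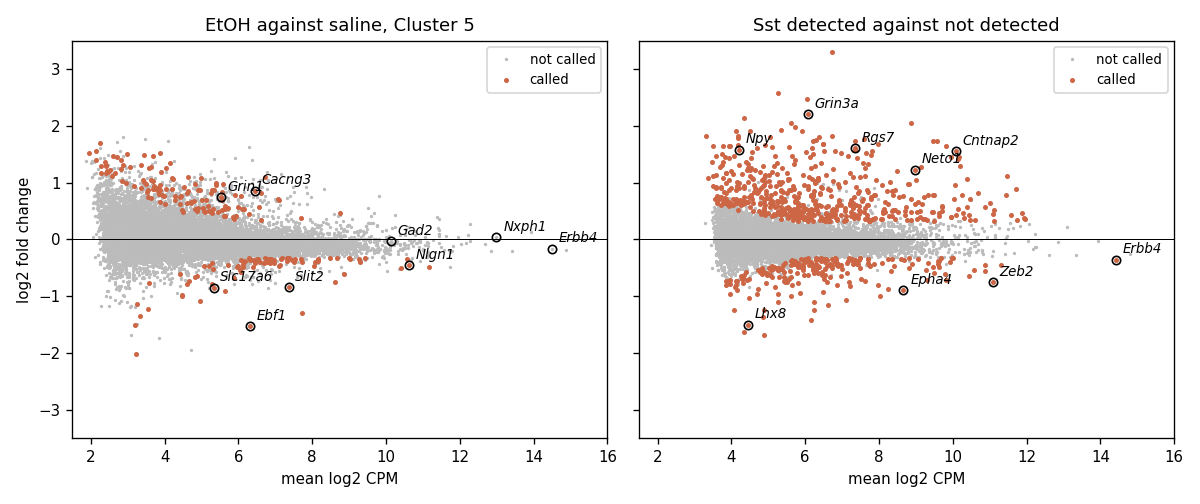
Log2 fold change (y axis) against mean log2 CPM (x axis) of each gene tested in Cluster 5, for EtOH against saline embryos (left, 215 genes called in orange) and for nuclei with against nuclei without Sst UMIs (right, 755 called). The markers Nxph1, Erbb4 and Gad2 lay near 0 on the left, and Erbb4 lay below 0 on the right.

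How the nuclei of Cluster 5 varied among themselves was examined with Sst. At least 1 Sst UMI was found in 512 nuclei, 342 of which had exactly 1, and 3297 nuclei had none. Nuclei with Sst were deeper, with a median of 8356.5 UMIs against 6409, so the split was repeated after thinning. In edgeR with the embryo as a block, 533 of 8104 genes (6.58%) were higher and 222 (2.74%) lower in nuclei with Sst. In the thinned nuclei, with 10 embryos and 3414 genes, 90 were higher and 32 lower, and 103 of these 122 genes were among those called before. Of the genes called before that could still be tested, 276 of 285 kept their direction among the higher and 139 of 147 among the lower. They were picked in the same nuclei, so the kept directions are no separate support.

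Many of the listed receptor and synaptic genes were higher in nuclei with Sst. Of 28 glutamate receptor and scaffold genes, 15 were higher and 0 lower, where 6.58% of all genes tested were higher and 2.74% lower. Their median log2 difference was 0.44 against -0.0084 over all genes tested. In thinned nuclei, 11 of the 15 could be tested and 7 were called. Neto1, which attaches to kainate and NMDA receptors, had 299, 748 and 1234 CPM as the lowest, median and highest of the 11 embryos in nuclei with Sst and 156, 317 and 439 CPM in nuclei without. The ranges overlapped between embryos, but Neto1 was higher in 11 of 11 embryos, by a fold of 2.34 (log2 1.22 ± 0.076, edgeR adjusted p = 1.87e-10), and in thinned nuclei the log2 difference was 0.81 (edgeR adjusted p = 3.02e-05). Dlg2 was 2.10-fold higher, Gria3 2.72-fold and Grin1 1.92-fold, each in 11 of 11 embryos. In thinned nuclei Dlg2 was called, Gria3 went from a log2 difference of 1.44 to 1.11 (edgeR adjusted p = 0.126), and Grin1 and Grin3a could not be tested. Grin3a had the largest fold of this list, 4.595, with 19.2 to 369 CPM between embryos in nuclei with Sst.

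Of 22 neurexin partners tested, 8 were higher and 1 was lower, and in thinned nuclei 7 of the 8 and 0 of the 1 were called. Among all genes tested, 6.58% were higher and 2.74% lower, and in thinned nuclei 90 and 32 of 3414. Cntnap2 had 725, 1432 and 2807 CPM as the lowest, median and highest level with Sst and 336, 463 and 991 CPM without, higher in 11 of 11 embryos (fold 2.92, edgeR adjusted p = 7.79e-05). Lrrtm4, Ptprm, Ptprt and Cntnap3 were higher in 11 of 11 embryos as well. The GABA receptor subunits Gabra2 (fold 1.97), Gabra3 (1.99) and Gabrb1 (1.96) and Gabbr2 (1.76) made 4 higher and 0 lower of 10, of which Gabra2 alone was called in thinned nuclei. There the log2 difference of Gabbr2 went from 0.81 to 1.00 (edgeR adjusted p = 0.113), that of Gabra3 from 1.00 to 0.71 (0.367) and that of Gabrb1 from 0.97 to 0.51 (0.499). Of 7 genes for GABA synthesis and transport, the chloride exporter Slc12a5 was higher (fold 1.88) and the GABA-degrading enzyme Abat lower. In thinned nuclei Slc12a5 could not be tested, and Abat went from -0.44 to -0.36 (log2, edgeR adjusted p = 0.746). Of 6 subtype genes 4 were higher, which were Npy, Calb1, Reln and Kcnc2. In thinned nuclei Reln was called, Npy and Calb1 could not be tested, and Kcnc2 went from a log2 difference of 0.33 to 0.074 (edgeR adjusted p = 0.916). Npy had 17.1, 34.9 and 71.5 CPM with Sst and 5.55, 11.2 and 19.5 CPM without as the lowest, median and highest, and was higher in 11 of 11 embryos (fold 2.97, edgeR adjusted p = 4.02e-07).

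**Figure D5:**
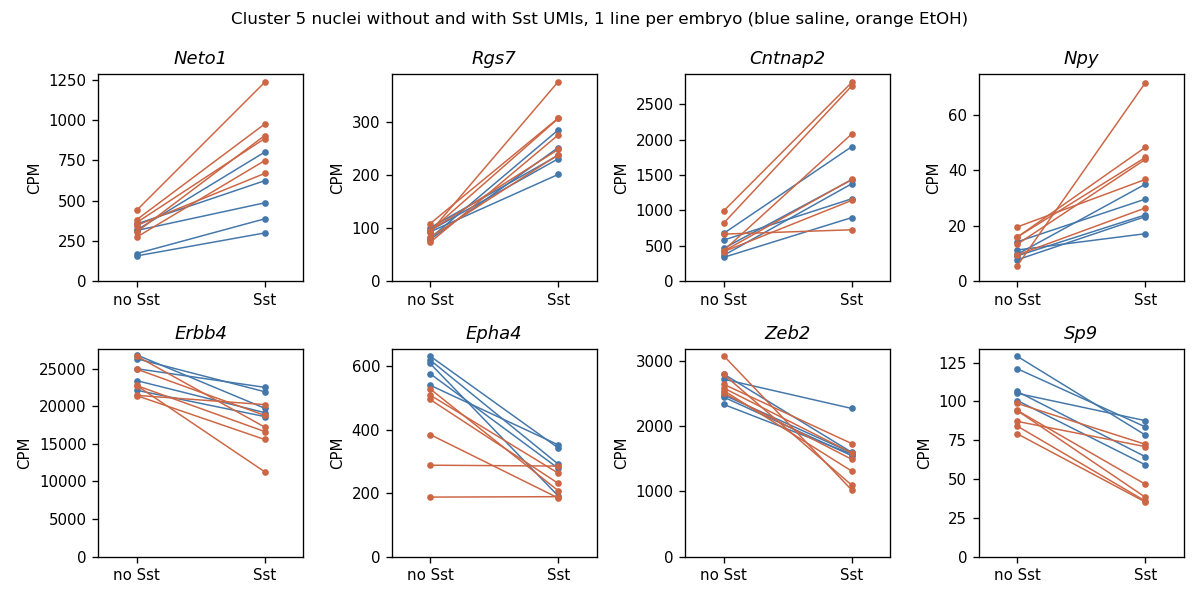
CPM (y axes) of 8 genes in the Cluster 5 nuclei without (left) and with (right) Sst UMIs, with 1 line per embryo in blue for saline and orange for EtOH. Neto1, Rgs7, Cntnap2 and Npy were higher with Sst in 11 of 11 embryos, Erbb4, Zeb2 and Sp9 in 0 of 11 and Epha4 in 1 of 11.

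Transcription factors shared by GABAergic neurons and migration genes held members that were lower in nuclei with Sst. For comparison, 2.74% of all genes tested were lower and 6.58% higher, and in thinned nuclei 32 and 90 of 3414. Of 10 shared GABAergic factors, 5 were lower and 0 higher, which were Zeb2, Zfp536, Npas3, Npas1 and Sp9. In thinned nuclei Zeb2 and Zfp536 were called and Npas1 could not be tested, while the log2 difference of Sp9 went from -0.63 to -0.52 (edgeR adjusted p = 0.507) and that of Npas3 from -0.45 to -0.32 (0.525). Zeb2 had 1021, 1575 and 2275 CPM as the lowest, median and highest level with Sst and 2338, 2590 and 3086 CPM without, so the classes did not overlap (fold 0.592, edgeR adjusted p = 9.75e-05). Of 20 genes of the migration machinery, 5 were lower and 0 higher, which were Sh3rf1, Sh3rf3, Ccdc88a, Dclk2 and Rnd3, and of these Sh3rf1 and Sh3rf3 were called in thinned nuclei. The log2 difference of Ccdc88a went from -0.34 to -0.39 (edgeR adjusted p = 0.0526), that of Rnd3 from -0.76 to -0.89 (0.379) and that of Dclk2 from -0.38 to -0.27 (0.332). Erbb4 had 11268, 18772 and 22502 CPM with Sst and 21405, 23397 and 26821 CPM without, and was lower in 11 of 11 embryos (fold 0.779, edgeR adjusted p = 0.000582). Ackr3 was lower too, by a log2 difference of -0.33, though higher in 2 of 11 embryos, while Ntrk2 and Nrg2 were higher. In thinned nuclei 0 of these 4 were called. The log2 difference of Erbb4 went from -0.36 to -0.27 (edgeR adjusted p = 0.0325, short of the fold threshold), that of Ackr3 to -0.12 (0.910), that of Ntrk2 from 0.37 to 0.27 (0.378) and that of Nrg2 from 0.59 to 0.55 (0.571). Of 25 Wnt genes, 3 were lower, which were Ror2, Wls and Lrp5, and of these Wls was called in thinned nuclei. Lrp5 could not be tested there, and Ror2 kept a log2 difference of -0.82 (edgeR adjusted p = 0.0681).

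The medial eminence factors split, where 6.58% of all genes tested were higher and 2.74% lower. Satb1 (fold 1.54) and Sox6 (1.29) were higher with Sst in 11 of 11 embryos, and Lhx8 (0.352), Zbtb16, Mef2c and Rai2 were lower. In thinned nuclei Satb1 and Mef2c were called and Lhx8 could not be tested. The log2 difference of Zbtb16 went from -0.64 to -0.68 (edgeR adjusted p = 0.230), that of Rai2 from -0.35 to -0.34 (0.534) and that of Sox6 from 0.37 to 0.27 (0.126). Satb1 is known to promote the maturation of somatostatin interneurons, and Lhx8 belongs to earlier cells and to subpallial neurons. Lhx8 reached 0 CPM in at least 1 embryo in nuclei with Sst, so its fold depends on few UMIs. Of the guidance genes 6 were higher and 2 lower, with Sema6d 2.73-fold higher and Epha4 at a fold of 0.538. In thinned nuclei 3 of the 6 (Sema6d, Unc5c and Epha6) and both lower genes (Epha4 and Plxna4) were called. Sema3a went from a log2 difference of 0.78 to 0.47 (edgeR adjusted p = 0.148), Nrp2 from 0.55 to 0.37 (0.656), and Epha7 turned from 0.36 to -0.082 (0.949). Of the other lists tested, 1 of 11 caudal and lateral factors (Tshz1) and 1 of 10 phase genes (the cycle inhibitor Cdkn1b) were lower, neither of which could be tested in thinned nuclei, and 0 of 14 stress genes were called. Nothing is read from single calls in lists of this size. Of the markers of other cell types, 0 of 4 radial glia, 0 of 7 projection neuron, 0 of 3 striatal, 0 of 1 intermediate progenitor, 0 of 1 non-neuronal and 0 of 2 blood markers were called, while Reln, the 1 Cajal-Retzius marker tested, was higher.

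Over all genes, the smallest p-values among the higher belonged to Rgs7, a regulator of G protein signalling (fold 3.03, 201 to 376 CPM with Sst and 73.0 to 108 CPM without, edgeR adjusted p = 2.18e-14), and to the kinase Prkcq (fold 4.12). They were followed by the long RNA Meg3 (1.75), the prohormone convertase Pcsk2 (2.24), Neto1, the active zone genes Rims1 and Pclo, the potassium channel Kcnma1, Ablim3, Negr1, Grid1, the calcium channel Cacna1d, Snhg11, Zfp385b and Far2. Among the lower, the smallest p-values included those of Epb41l4a (fold 0.572), Neb (0.478), Sh3rf1 (0.606), Cdk14, Runx1t1, Zfp536, Slain1, Dlx6os1, Zswim5, Entpd1, Smoc1, Khdrbs2, Map3k20 and Cntnap5c. In thinned nuclei Ablim3 and Far2 could not be tested, and Cacna1d went from a log2 difference of 0.84 to 0.58 (edgeR adjusted p = 0.132). Of these lower genes, 7 were not called in thinned nuclei. Map3k20 went from -0.80 to -0.18 (edgeR adjusted p = 0.937), Neb from -1.06 to -0.67 (0.128), Cntnap5c from -0.48 to -0.22 (0.523), Zswim5 from -0.51 to -0.30 (0.350), Slain1 from -0.56 to -0.35 (0.287), Cdk14 from -0.55 to -0.35 (0.0521) and Entpd1 from -0.94 to -1.01 (0.211). Of the 533 higher and 222 lower genes, 164 and 78 moved in the same direction in every one of the 11 embryos. The calls came from these same embryos, so the counts are no separate support. In either treatment alone, 582 genes were called in the saline and 379 in the EtOH embryos, of which 476 and 337 were among the 755.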

How the data were processed

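Nuclei of 11 embryos were profiled by droplet-based snRNAseq. Per the submitters' notes, Cell Ranger (version not given in the sources used here) was run against mm10. The authors then kept nuclei within set limits of UMIs, genes and mitochondrial, ribosomal or hemoglobin RNA, removed some genes, clustered the nuclei with Seurat and deposited raw UMI counts of 23513 genes in 275 tables, 1 per embryo and cluster. Values are whole numbers without normalization. The Cluster 5 nuclei, gene lists and tests were chosen with earlier results of these data known.

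Counts were summed per embryo with Python 3.11.15, leaving out an embryo for a cluster in which it had under 10 nuclei. Genes were tested in R 4.3.3 with edgeR 4.0.16 (TMM, filterByExpr, robust quasi-likelihood fit, Benjamini-Hochberg adjustment), with DESeq2 1.42.0 and limma 3.58.1 (voom) as alternatives. SEs were derived from the quasi-likelihood F statistic. The fits were checked on simulated counts. Percentages and depths were compared by two-sided exact permutation tests over all splits of the embryos. For the named genes, the rule took up to 15 called genes per direction with the smallest p-values, called members of the lists, members at high level or highest in Cluster 5, the 20 genes with the largest ratio to the next cluster and those that differed most from Cluster 23, and predicted genes were given as numbers only. Symbols were matched to GENCODE M21 on GRCm38 (23125 of 23513 genes). The strand used in counting is not given in the sources used here, so reads of genes that overlap on opposite strands may not be told apart. Nuclei of an embryo are not independent, so no interval per nucleus was given. Alternatives covered normalization, filters, tool, batch, dam, pairing, depth and each embryo left out. Results for some of the genes that the rule names are not reported here.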

Additional observations from a re-analysis of the deposited data

Results flagged for a closer look

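Within the EtOH embryos, E1-1 stood apart in depth. Its median of 4140 UMIs and 1818 genes per Cluster 5 nucleus lay below the other 5 embryos by 0.768 and 0.784 of the range of the group, above the critical value of Dixon's test for 6 samples. Without E1-1, 114 genes were called for EtOH against saline. Within the saline embryos, S2-2 had the lowest Lhx6 level, 251 CPM, apart from the other 4 by 0.721 of the range, against 0.71 allowed for 5 samples. Of 48 groups of values tested in this way 3 were singled out, and chance gives about 1 in 20.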

How the results depend on the processing

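The 215 genes called for EtOH against saline became 639 without a filter on low counts, 509 with DESeq2, 397 with limma and the dam as a random block, 81 with counts summed per dam, 85 with thinned nuclei and 0 with the depth covariate, which was added after the data were seen. Of the 85 genes called with thinned nuclei, 38 were among the 215. With RLE size factors (223) and batch as a term (160) the count stayed within 1.5 times. Leaving out single embryos gave 2 (without S1-2) to 1426 (without S2-4). With same-numbered embryos of a batch as a replicate block, 24 genes were called, 18 of them among the 215. The labels do not say that numbers pair embryos, and the deviations of the 5 pairs from their group means correlated between -0.069 and 0.054. Of the 37 called genes followed one by one, none changed sign, though these fits used the same embryos that gave the calls.

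For the interaction, 6 genes were called without a filter, 2 with DESeq2 and 8 against Cluster 23 alone, and between 0 and 1 with single embryos left out. For the Sst split, the 755 genes became 122 with thinned nuclei (of 3414 tested) and 379 in EtOH embryos alone, with fewer UMIs or embryos by construction, and 645 to 791 with single embryos left out. Epha7 turned from 0.36 to -0.082 (log2) in thinned nuclei. The other alternatives gave total counts within 1.5 times. Without a filter on low counts, however, 522 genes were higher and 595 lower with Sst, against 533 and 222 as reported. The excess of higher genes thus depended on the filter.

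The difference in the share of nuclei (0.437 percentage points) turned to -0.307 with group medians, and leaving out single embryos gave -0.238 (without S2-2) to 0.872. It was 0.321 over same-numbered pairs (replicate block, exact sign-flip p = 0.750, where 0.0625 is the smallest possible) and 0.177 over dam means. The depth difference kept its sign and call within batch, with mean UMIs and with single embryos left out. It was not tested over same-numbered pairs or dam means, where p cannot go below 0.0625 and 0.333. The log2 changes of the markers, near 0, turned sign for Nxph1 without a filter (-0.012), with the replicate block (-0.0078) and without E2-3 (-0.0031), where leaving out single embryos gave -0.0031 to 0.082, for Erbb4 with the depth covariate (0.0059), and for Gad2 with thinned nuclei (0.028), without S2-1 (0.0036) and without E2-1 (0.00046), where leaving out single embryos gave -0.059 to 0.0036. The cause of these changes was not tested. After thinning to 2000 UMIs, 3414 of the 8104 genes of the Sst split could be tested.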
